A study of Mus musculus with 16 samples.

Results

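The cytosolic ribosomal proteins are the protein part of the machine that translates nuclear messenger RNAs. They were taken here as the protein-coding genes whose GENCODE M21 symbol is Rpl or Rps followed by digits, with an optional letter or l, together with Rplp0, Rplp1, Rplp2 and Rpsa, and without the kinases named Rps6k or Rps6kl. The rule found 81 genes among the 54532 gene identifiers that were counted, 31 of the small (40S) subunit and 50 of the large (60S) subunit. It uses symbols only, so some genes of the same kind fell outside it, among them Rps3a1, Rpl22l1, Rpl7l1 and Rps27rt, a coding copy of Rps27.

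Each cell carries many ribosomes, and every ribosome holds 1 copy of most of these proteins, so their messenger RNAs are abundant and are usually made in similar proportions. Most of these messenger RNAs begin with a run of pyrimidines (a terminal oligopyrimidine tract, TOP) through which the kinase mTORC1 and its partner LARP1 control their translation and stability. Ribosomal protein genes have also left many processed pseudogenes, intronless copies of their messenger RNAs, elsewhere in the genome, and short reads can match a gene and its copies equally well.

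The cells were macrophages grown from mouse bone marrow for 7 days in M-CSF (20 ng/mL), the factor that drives macrophage differentiation. For the last 24 h they either got no tumor medium or 70% of a medium in which YUMM1.7 mouse melanoma cells had grown (tumor-conditioned medium, TCM). There were 5 groups with 16 libraries in all, namely WT naive (wild type, no TCM, n = 3), WT TCM (wild type, n = 3), TRAP1 KO TCM (knockout of the mitochondrial chaperone TRAP1, n = 4), JMJD3 WT TCM (wild type of the line carrying the JMJD3 deletion, n = 3) and JMJD3 cKO TCM (conditional knockout of the histone demethylase JMJD3, n = 3). The labels give no sex, age or strain, no Cre driver or deleted exons for the conditional knockout, and do not tell separate animals or cultures from repeated preparations. The p-values therefore rest on the variation among libraries, part of which may be technical.

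Libraries held 15361604 to 22426820 counts. Trap1 was at 67.7 CPM (counts scaled to library depth) in WT TCM and 0.038 CPM in TRAP1 KO TCM, whereas Kdm6b, the gene of JMJD3, stood at 25.1 CPM in the wild type of the JMJD3 line and at 25.6 CPM in the libraries labelled cKO, so its level does not separate these from their wild type. JMJD3 cKO TCM and cKO stand below for the libraries so labelled. The 7 macrophage markers were detected in every group and summed to between 12630 and 25697 CPM, while the 4 melanoma markers summed to at most 0.38 CPM in any group, with Tyr at 0 in every library. Xist had at most 1 count per group outside the JMJD3 line and Ddx3y had 0 counts within it, so line, sex and any batch cannot be told apart between these sets.

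To show what the messenger RNAs have in common at their first bases, the sequence around the annotated start was read from the RefSeq promoter table (GRCm38.p6), which held 61 of the 81 members. A run of 8 or more C or T within 15 bases of the annotated start was present in 23 of them (37.7%), against 13.5% of the 27025 genes in that table. The windows below give 15 bases on each side of the annotated start, 5′ to 3′ on the gene's strand, with the longest run of C or T in capitals. They are shown for Rps6, the substrate of the S6 kinases, for Rps18 and Rpl12, members with some of the largest differences between the wild types, and for Rps24 and Rpl15, members with the smallest called ones, Rpl15 being chosen after its values were seen.
Rps6, chr4:86857353-86857382, minus strand: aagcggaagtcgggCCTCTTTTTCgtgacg
Rps18, chr17:33955651-33955680, minus strand: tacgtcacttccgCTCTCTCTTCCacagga
Rpl12, chr2:32961697-32961726, plus strand: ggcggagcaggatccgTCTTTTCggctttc
Rps24, chr14:24490663-24490692, plus strand: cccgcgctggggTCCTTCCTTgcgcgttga
Rpl15, chr14:18270972-18271001, minus strand: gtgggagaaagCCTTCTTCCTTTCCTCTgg

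The longest run at these starts was 7 bases in Rpl12, short of the length counted above, and 9 to 17 bases in the other windows shown. These windows were chosen and are longer than most: the median longest run of the 61 members was 6 bases. Rps2 and Rpsa, also among the members that differed most between the wild types, had 6 and 5 bases. Whether run length goes with the size of a difference was not tested. Rpl10, described below, has no run over 3 bases in its window.
Rpl10, chrX:74270801-74270830, plus strand: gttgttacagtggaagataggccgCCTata

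In the whole promoter windows the motif CCGGAAG, searched on both strands and known as a site of ETS factors, occurred in 24 of the 61 members (39.3%) and in 9.1% of all genes. GGGCGG, an SP1 motif, occurred in 59.0% and 35.9%, AAGATGGC, a YY1 motif, in 6.6% and 2.9%, and TATAA in 26.2% and 25.5%. A match describes these letters and is not evidence that a factor binds there.

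Levels of different members were compared as CPM per kilobase of the principal transcript, averaged over the 16 libraries. Rplp1, an acidic protein of the stalk that recruits translation factors, was highest at 1098 CPM per kb. Rpl10, a late-joining 60S protein near the catalytic centre, followed at 680.5 CPM per kb, with Rpl41, which encodes a very short basic peptide, at 662 (above Rpl10 in WT TCM and TRAP1 KO TCM, below it in the other groups), Rpl13 at 602 and Rps14 at 555. The median member stood at 249 CPM per kb. The lowest values were those of Rpl10l (0 counts in every library), Rpl3l (0.116 CPM per kb), Rpl39l (0.388), Rpl36al (0.395) and Rps10 (3.04). Rpl10l, Rpl3l and Rpl39l are paralogs known from testis or muscle, and were too low to be tested in any comparison. Rps10 belongs to every ribosome, and its low value is taken up with the pseudogenes below.

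All members together took 2.12 to 2.13% of counts in WT naive (mean 2.13 ± 0.0054%, SD, n = 3) and 2.26 to 2.28% in WT TCM (2.27 ± 0.015%, n = 3). In TRAP1 KO TCM the share ran from 2.13 to 2.19% (2.16 ± 0.027%, n = 4). JMJD3 WT TCM lay at 1.32 to 1.37% (1.34 ± 0.028%, n = 3) and JMJD3 cKO TCM at 1.62 to 1.69% (1.66 ± 0.038%, n = 3). The libraries of the JMJD3 line were thus all below the others, and the cKO libraries all above their own wild type. Both subunits showed this order: 40S members took 0.918 ± 0.011% of counts in WT TCM, against 0.544 ± 0.012% for the JMJD3 wild type and 0.676 ± 0.023% for the cKO, and 60S members 1.35 ± 0.0042%, 0.797 ± 0.018% and 0.988 ± 0.016%. These are shares of a library, and fewer cells of a type or less RNA per cell cannot be told apart from them.

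**Figure D1:**
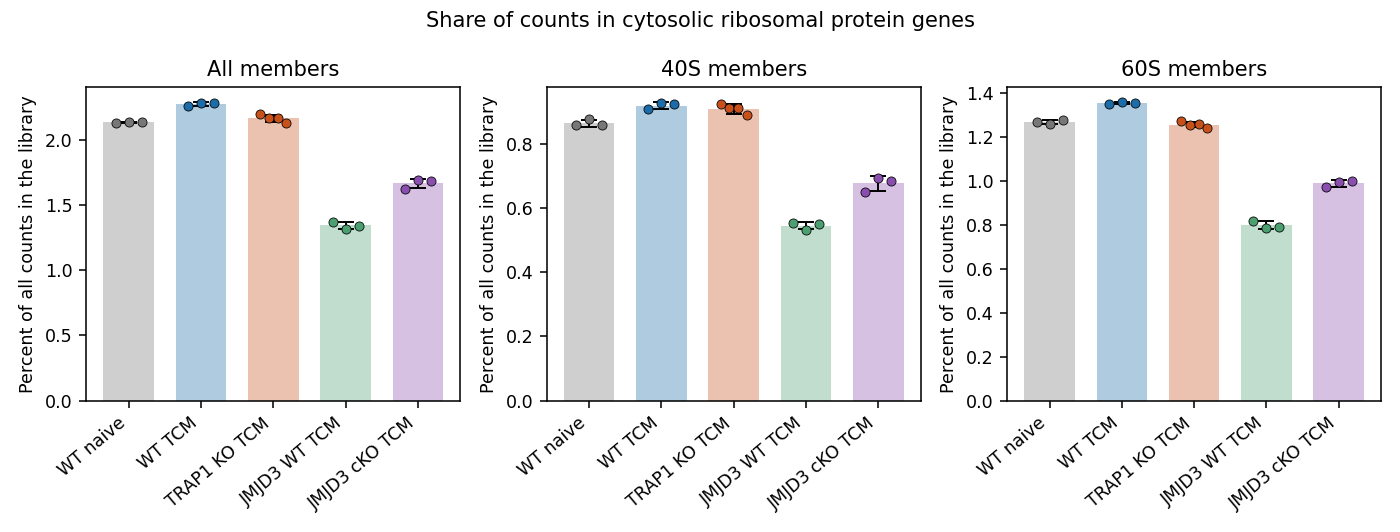
Percent of all counts of a library that fell in the 81 members (left), the 31 members of the 40S subunit (middle) and the 50 of the 60S subunit (right); points are libraries, bars are group means and error bars are SD. JMJD3 WT TCM (1.34%) and JMJD3 cKO TCM (1.66%) lie below the other 3 groups in each panel.

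Other features moved between the groups as well. Mitochondrially encoded genes took 1.26 ± 0.015% of counts in WT TCM and 1.43 ± 0.015% with the TRAP1 deletion, and in the JMJD3 line 0.769 ± 0.022% in the wild type and 0.843 ± 0.022% in the cKO. Coding genes outside the members with transcripts under 1000 bases took 4.94, 4.72, 4.78, 4.80 and 4.88% of counts in the 5 groups, in the order in which these were introduced, so short transcripts as a class did not show the members' range. The part that RNA quality or total RNA content had in the members' shares was not tested.

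The first comparison was WT TCM against WT naive, the effect of the conditioned medium in wild type. Of 78 members tested, 47 were higher with TCM and 4 lower (edgeR, adjusted p under 0.05), where 21.6% of all 14078 genes tested were called higher and 20.6% lower. The median member differed by 0.10 on the log2 scale, and the median of all genes by -0.01. Calls were spread over both subunits, with 18 of 31 tested 40S members and 29 of 47 tested 60S members higher. The 2 groups did not overlap in 53 members, against 50.1% of all genes.

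Rpl3, a 60S protein close to the catalytic centre, was at 364, 375 and 375 CPM in WT naive and at 468, 478 and 479 CPM in WT TCM. All TCM libraries lay above all naive ones, and the log2 fold change was 0.35 (SE 0.020, adjusted p = 4.2e-29). Rpl10a, of the L1 stalk past which spent transfer RNAs leave, rose by 0.25 (SE 0.023, adjusted p = 6.9e-17), from 227 ± 1.3 to 271 ± 2.6 CPM. Rps9 and Rps16, of the 40S subunit, rose by 0.24 (SE 0.019) and 0.22 (SE 0.022), and Rpl41 by 0.27 (SE 0.055, adjusted p = 0.0049).

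Rpl7a showed the highest positive value, 0.71, with an SE of 0.23 and an adjusted p of 0.042. Its libraries ranged from 65.7 to 87.4 CPM in WT naive and from 98.5 to 152 CPM in WT TCM. The groups did not overlap, but replicates of this gene spread more than those of most members, and the call was lost under several other settings, including a fit with only these 2 groups (0.71, adjusted p = 0.058).

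The 4 members that fell with TCM came from both subunits. Rps27l, a paralog of Rps27 that p53 is known to induce, was at 107, 114 and 110.5 CPM in WT naive and at 85.2, 88.7 and 88.4 CPM in WT TCM. It fell by 0.34 (SE 0.034, adjusted p = 8.4e-15). Rplp2, an acidic stalk protein, fell by 0.11 (SE 0.032, adjusted p = 0.0081) and was no longer called once WT TCM replicate 1 was left out (-0.09, adjusted p = 0.056) or by DESeq2 (-0.10, adjusted p = 0.083). Rps24 fell by 0.06 (SE 0.022, adjusted p = 0.031), a call lost in 4 of the 6 fits that left out a library. Rpl21 fell by 0.95 (SE 0.21, adjusted p = 0.0086), from 57.8 to 68.7 CPM in WT naive to 32.3 to 34.9 CPM in WT TCM. Summed with its near-identical copies, Rpl21 fell by 0.27 (SE 0.044).

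Markers of other cells moved with TCM too. The 7 neutrophil markers summed to 50.1 to 54.1 CPM in WT naive and 4.09 to 5.46 CPM in WT TCM, with all 6 tested called lower. The 6 fibroblast markers summed to 13.3 to 14.4 CPM and 0.166 to 0.404 CPM, and macrophage markers to 15706 and 25697 CPM. The 7 macrophage markers did not move together, with 4 called higher and 3 lower with TCM. Their part in the members' differences was not tested.

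The second comparison was TRAP1 KO TCM against WT TCM, which holds the medium constant. Here 8 members were higher and 31 lower, against 21.2% of all genes higher and 21% lower, and the median member differed by -0.05, with a median of 0.01 for all genes. Of the 60S members, 20 of 47 tested fell and 3 rose, and of the 40S members 11 of 31 fell and 5 rose. Differences were small for most members: 5 called members exceeded 1.2-fold, and 1 exceeded 1.5-fold. Groups did not overlap in 36 members, against 43% of all genes. The comparison shares its WT TCM libraries with the first.

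That 1 member was Rpl29, a small basic 60S protein without which mice are known to be viable. The gene lies on chromosome 9 at 106429454 to 106431568 on the plus strand (GRCm38). Rpl29 was at 175, 166 and 176 CPM in WT TCM and at 0.535, 0.808, 0.845 and 0.702 CPM in the 4 TRAP1 KO libraries. Every other library of the series lay between 112 and 152 CPM. The 4 knockout libraries held 57 Rpl29 counts against 9251 in the 3 WT TCM libraries. Per scaled total the level was 237 times higher in WT TCM, with an exact 95% interval of 183 to 313 that covers counting error only. The fitted log2 fold change was -7.87 (SE 0.068, adjusted p = 4.2e-92).

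Rplp0, the base of the stalk and often used as a reference gene, had the next largest fall. The gene lies on chromosome 5 at 115559467 to 115563727 on the plus strand. It was at 855, 862 and 827 CPM in WT TCM and at 609, 593, 598 and 587 CPM in TRAP1 KO TCM. The 2 groups were well apart, and the log2 fold change was -0.50 (SE 0.017, adjusted p = 1e-44).

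Both of these members have processed pseudogenes whose counts moved at the same time. Gm8730, on chromosome 8 at 102864845 to 102865798 on the minus strand, matched the Rplp0 transcript over 954 bases with 12 mismatches. It was at 3.78, 3.81 and 2.79 CPM in WT TCM and at between 125 and 142 CPM in TRAP1 KO TCM, a log2 fold change of 5.29 (SE 0.069). Gm9625 on chromosome 13, with 24 mismatches to Rplp0, was at 0.221 to 0.454 CPM in WT TCM and at 10.9 to 15.3 CPM in TRAP1 KO TCM. Counted together with its near-identical genes, Rplp0 was at 830.5 to 866 CPM in WT TCM and at 734 to 766 CPM in TRAP1 KO TCM, which lowered its log2 fold change to -0.18 (SE 0.017, adjusted p = 3.9e-17).

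For Rpl29 the pseudogene Gm13841 on chromosome 5, with 3 mismatches over 483 bases, was at 16.2 to 18.3 CPM in WT TCM and at 42.2 to 44.9 CPM in TRAP1 KO TCM (1.36, SE 0.062). Gm8210 on chromosome 1, also with 3 mismatches, was at 0.444 to 0.662 CPM and at 3.99 to 5.02 CPM. Gm10709, on chromosome 9 with 4 mismatches, went the other way, from 2.79 to 4.14 CPM in WT TCM to between 0 and 0.149 CPM in TRAP1 KO TCM. The Rpl29 family as a whole fell from between 189.6 and 201 CPM to between 49.4 and 52.5 CPM, a log2 fold change of -1.93 (SE 0.031), so the family's counts fell as well, by less than those of the gene itself.

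To show how little separates these genes for a short read, a stretch of 60 bases of the coding sequence is given for each pair, from the GENCODE M21 transcripts, with the differing bases in capitals in both. The stretch of Rplp0 covers coding bases 388 to 447 and that of Rpl29 coding bases 13 to 72.
Rplp0: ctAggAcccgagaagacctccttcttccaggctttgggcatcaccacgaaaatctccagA
Gm8730: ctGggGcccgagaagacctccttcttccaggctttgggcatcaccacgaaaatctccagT
Rpl29: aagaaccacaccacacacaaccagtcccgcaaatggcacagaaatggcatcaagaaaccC
Gm13841: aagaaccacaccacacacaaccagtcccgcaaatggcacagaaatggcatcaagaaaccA

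The Rplp0 pair differs at 3 of these 60 bases and the Rpl29 pair at 1. The labels do not say how reads that fit both copies were assigned, so a count in the gene and a count in the copy cannot be told apart from these tables.

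**Figure D2:**
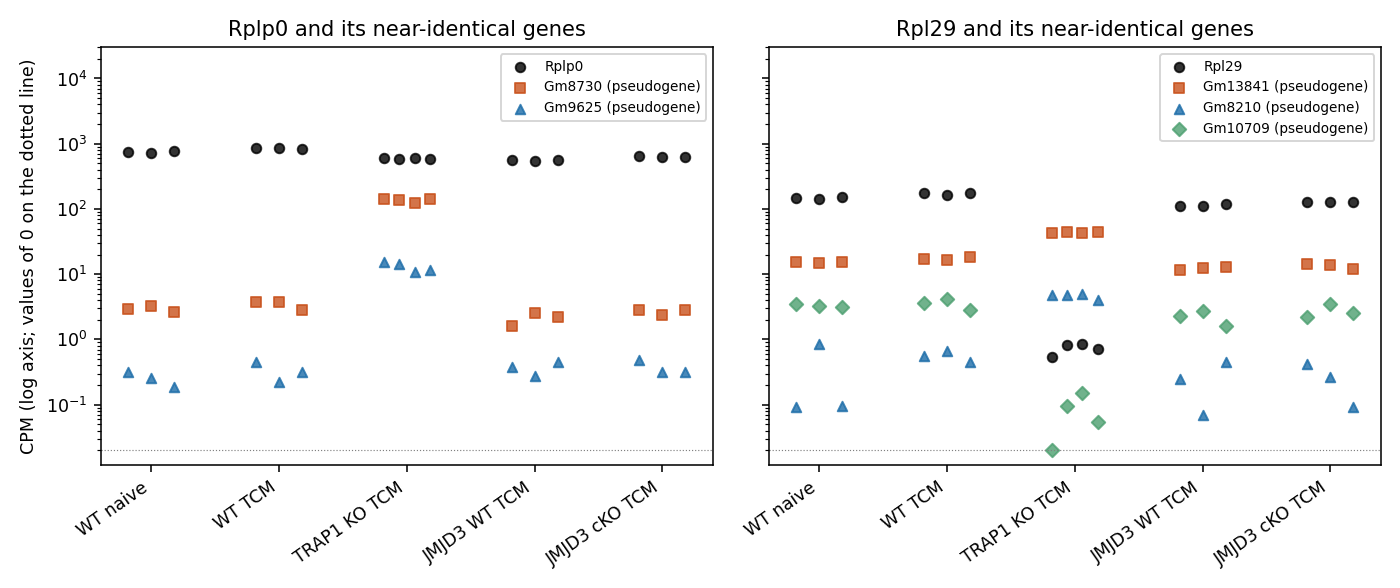
CPM on a log axis of Rplp0 (left) and Rpl29 (right), black circles, and of processed pseudogenes nearly identical to them, coloured symbols; each point is 1 library and values of 0 sit on the dotted line. In TRAP1 KO TCM alone Rpl29 drops below 1 CPM (right), and Gm8730, a pseudogene of Rplp0 and not of Rpl29, reaches 125 to 142 CPM (left).

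Without Rpl29 and Rplp0, which were chosen for this after their values were seen, the other 79 members took 2.17 ± 0.015% of counts in WT TCM and 2.10 ± 0.026% in TRAP1 KO TCM, and the groups still did not overlap. Among these, Rpl10a fell by 0.27 (SE 0.022, adjusted p = 2.6e-19), from 268 to 273 CPM in WT TCM to 222 to 226 CPM in TRAP1 KO TCM. Rpl28 fell by 0.26 (SE 0.023), Rpl3 by 0.22 (SE 0.019) and Rps28 by 0.22 (SE 0.040). Rps6, the S6 kinase substrate, fell by 0.15 (adjusted p = 1.1e-11), from 453 ± 9.0 to 404.5 ± 5.1 CPM.

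Higher members in TRAP1 KO TCM were led by Rps10 (0.52, SE 0.18, adjusted p = 0.016) and Rps27l. Rps10 stood at only 2.04 to 2.73 CPM in WT TCM and 2.91 to 4.02 CPM in TRAP1 KO TCM. Its call was lost without WT TCM replicate 2 (0.41, adjusted p = 0.12) or TRAP1 KO replicate 3 (0.43, adjusted p = 0.070). The call turned to a fall of 0.10 (adjusted p = 0.020) when Rps10 was counted with its pseudogenes. Rps27l was at 107, 114, 109.6 and 115 CPM in the knockout, all above the 85.2 to 88.7 CPM of WT TCM (0.36, SE 0.033, adjusted p = 6.4e-17). Rpl36 rose by 0.16, Rps14 by 0.13 and Rps9 by 0.12.

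Of the other stalk proteins, Rplp1 rose by 0.07 (adjusted p = 0.00032) and Rplp2 was at 0.07 without a call (adjusted p = 0.062). Rplp2 was called higher under several other settings, among them library totals (0.08, adjusted p = 0.041), the replicate block (0.11, adjusted p = 0.00049), and without WT TCM replicate 3 (0.09, adjusted p = 0.021) or TRAP1 KO replicate 4 (0.11, adjusted p = 0.00028). Rpl5, which with Rpl11 and the 5S RNA forms a particle able to bind Mdm2, fell by 0.08 (adjusted p = 0.00042), and Rpl11 was at -0.03 (adjusted p = 0.38). Of the 9 proteins of the peptide exit tunnel 4 fell and 1 rose, against 21% and 21.2% of all genes, with a median of 0.00.

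Markers of another cell type moved with this comparison. The 6 fibroblast markers summed to 0.166 to 0.404 CPM in WT TCM and to 4.71 to 6.96 CPM in TRAP1 KO TCM, and the 3 of them that could be tested were all higher in the knockout. Neutrophil markers summed to 4.56 and 4.08 CPM, but 1 of the 6 tested was called higher and 1 lower, with log2 fold changes from -1.96 to 2.34. Macrophage markers summed to 25697 and 24444 CPM. Of the 7 macrophage markers 2 were called higher in the knockout and 4 lower. T cell markers summed to 28.9 ± 0.85 CPM in WT TCM and 19.0 ± 0.90 CPM in TRAP1 KO TCM, with the 1 tested called lower (-0.61). Only 1 of the 4 T cell markers reached 1 CPM in any group, so this sum rests mostly on a single gene. The part of these markers in the members' differences was not tested.

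The third comparison was JMJD3 cKO TCM against JMJD3 WT TCM, within the JMJD3 line. Of 77 members tested, 65 were higher in the libraries labelled cKO and 1 lower, against 17.3% of all 13476 genes tested called higher and 17.8% lower. The median member differed by 0.25 on the log2 scale, the quartiles being 0.18 and 0.31, and the median of all genes by 0.01. Both subunits shifted alike, with 24 of 31 tested 40S members higher (median 0.25) and 41 of 46 tested 60S members (median 0.23). Groups did not overlap in 67 members, against 44.9% of all genes. Coding genes with short transcripts outside the members had a median of 0.05.

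Rps2, a 40S protein at the entry of the messenger RNA channel, was at 313, 320.3 and 315 CPM in JMJD3 WT TCM and at 410.4, 405 and 413 CPM in JMJD3 cKO TCM. It rose by 0.38 (SE 0.027, adjusted p = 3.1e-15). Rps18, of the head of the 40S subunit, rose by 0.39 (SE 0.034, adjusted p = 7.5e-13), from 173 to 181 CPM to 218 to 239 CPM. In both genes the lowest cKO library lay above the highest wild-type one.

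Rpl38, a 60S protein known for its part in the translation of Hox messenger RNAs, rose by 0.46 (SE 0.058, adjusted p = 1.7e-08), from 37.2 to 37.6 CPM to 46.9 to 55.8 CPM. Rps27l rose by 0.43 (SE 0.045, adjusted p = 2.2e-10) and Rpl13a by 0.38 (SE 0.13, adjusted p = 0.015), the latter at only 6.94 and 9.07 CPM. The call of Rpl13a was lost without JMJD3 WT replicate 2 (0.27, adjusted p = 0.14), without JMJD3 cKO replicate 1 (0.33, adjusted p = 0.073) and by DESeq2 (0.38, adjusted p = 0.097). The highest value was that of Rpl30, at 78.4, 101 and 79.5 CPM in the wild type and at 133, 131 and 119.7 CPM in the cKO (0.57, SE 0.12, adjusted p = 0.022). The call was lost in 4 of the 6 fits that left out a library (0.51, adjusted p = 0.068 without JMJD3 WT replicate 1; 0.52, adjusted p = 0.072 without JMJD3 WT replicate 3; 0.55, adjusted p = 0.070 without JMJD3 cKO replicate 1; 0.56, adjusted p = 0.071 without JMJD3 cKO replicate 2). Counting it with its pseudogenes gave 0.36 with a smaller error (SE 0.036, adjusted p = 1.9e-11).

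All 3 stalk proteins rose, by 0.17 to 0.19, as did Rpl5 (0.35, adjusted p = 1.4e-11) and Rpl11 (0.25, adjusted p = 9.3e-06). Of the exit tunnel proteins 8 of 9 rose, and of the 9 members mutated in Diamond-Blackfan anaemia 7 rose. Both counts lie near the share of all members, 65 of 77 tested, where 17.3% of all genes were called higher. Rpsa, a 40S protein also known as the laminin receptor, went from 302 ± 9.5 to 374 ± 6.5 CPM (0.31, adjusted p = 5.2e-12), and Rps6 from 284 ± 19 to 336 ± 6.4 CPM (0.25, adjusted p = 1e-06).

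Rpl24 was the single member called lower, at 6.63, 5.76 and 7.09 CPM in JMJD3 WT TCM and 5.66, 5.22 and 2.98 CPM in JMJD3 cKO TCM (-0.50, SE 0.17, adjusted p = 0.022). The call was lost without JMJD3 cKO replicate 3 (-0.25, adjusted p = 0.25), JMJD3 WT replicate 1 (-0.49, adjusted p = 0.052) or JMJD3 WT replicate 3 (-0.44, adjusted p = 0.10), and when the gene was counted with its pseudogenes (-0.24, adjusted p = 0.092). Rps24, which fell by 0.13 in TRAP1 KO TCM, was not called here: it was at 341 to 355 CPM in the wild type and 329 to 341 CPM in the cKO (-0.05, adjusted p = 0.18).

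Among markers of other cells, the 7 neutrophil markers summed to 23.5 ± 2.1 CPM in JMJD3 WT TCM and to 39.5 ± 1.0 CPM in the cKO, with 4 of the 5 tested called higher. Macrophage markers summed to 15865 and 12630 CPM, with 3 of the 7 called higher in the cKO and 4 lower. The 3 B cell markers summed to 2.47 and 1.26 CPM, but only 1 of them reached 1 CPM in any group. Their part in the members' rise was not tested.

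The 2 wild types under the same medium, JMJD3 WT TCM and WT TCM, differed most. Of 78 members tested, 70 were lower in JMJD3 WT TCM and 1 higher, where 31.3% of all 14545 genes tested were called lower and 30% higher. The median member differed by -0.61, with quartiles of -0.73 and -0.48, and the median of all genes by 0.00. Of the called members 41 differed over 1.5-fold and 3 over 2-fold. Groups did not overlap in 72 members, against 64.2% of all genes. Coding genes with short transcripts outside the members had a median of -0.06.

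The 3 members past 2-fold were Rpl3, Rpl10a and Rpl12, all of the 60S subunit. Rpl3 was at 198.5, 194 and 198 CPM in JMJD3 WT TCM, against 468 to 479 CPM in WT TCM (-1.27, SE 0.026, adjusted p = 2.7e-64). Rpl10a was at 123, 123 and 122 CPM, against 268 to 273 CPM (-1.14, SE 0.029). Rpl12, at the base of the factor-binding stalk, was at 144 to 159 CPM against 299 to 305 CPM (-1.01, SE 0.028). Rps2, Rps18 and Rpsa, at -0.97, -0.94 and -0.93, were the 40S members that differed most.

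At the other end Rps24 was the only member called higher (0.08, SE 0.025, adjusted p = 0.0066), with JMJD3 WT TCM at 341 to 355 CPM and WT TCM at 324 to 342 CPM. These ranges overlap, the call was lost in 3 of the 6 fits that left out a library, and the sign turned to -0.09 when library totals were used without TMM scaling. Rpl15 (-0.12), Rps9 (-0.20), Rps20 (-0.24), Rps14 (-0.31), Rpl19 (-0.32) and Rpl10 (-0.33) were the called members that differed least in the downward direction, and were named after their values were seen. The 4 X-linked members, Rps4x, Rpl10, Rpl36a and Rpl39, were lower by 0.33 to 0.92, with a median of -0.65, near that of all members.

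The wild types also differed in their markers. Neutrophil markers summed to 4.56 CPM in WT TCM and 23.5 CPM in JMJD3 WT TCM, and macrophage markers to 25697 and 15865 CPM. Of the 7 macrophage markers 3 were called higher in JMJD3 WT TCM and 4 lower. The T cell markers summed to 28.9 and 34.0 CPM and the B cell markers to 0.442 and 2.47 CPM. The tested one of each was called higher in JMJD3 WT TCM. Only 1 of the 4 T cell markers and 1 of the 3 B cell markers reached 1 CPM in any group. The part of these markers in the members' differences was not tested. In the libraries labelled JMJD3 cKO TCM, Rpl3 at 233 to 252 CPM, Rps2 at 405 to 413 CPM and Rpsa at 366 to 379 CPM lay between the wild types. The mean of Rps27l, 90.9 CPM, was above both wild types and that of Rpl24, 4.62 CPM, below both. No test was made between JMJD3 cKO TCM and WT TCM.

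**Figure D3:**
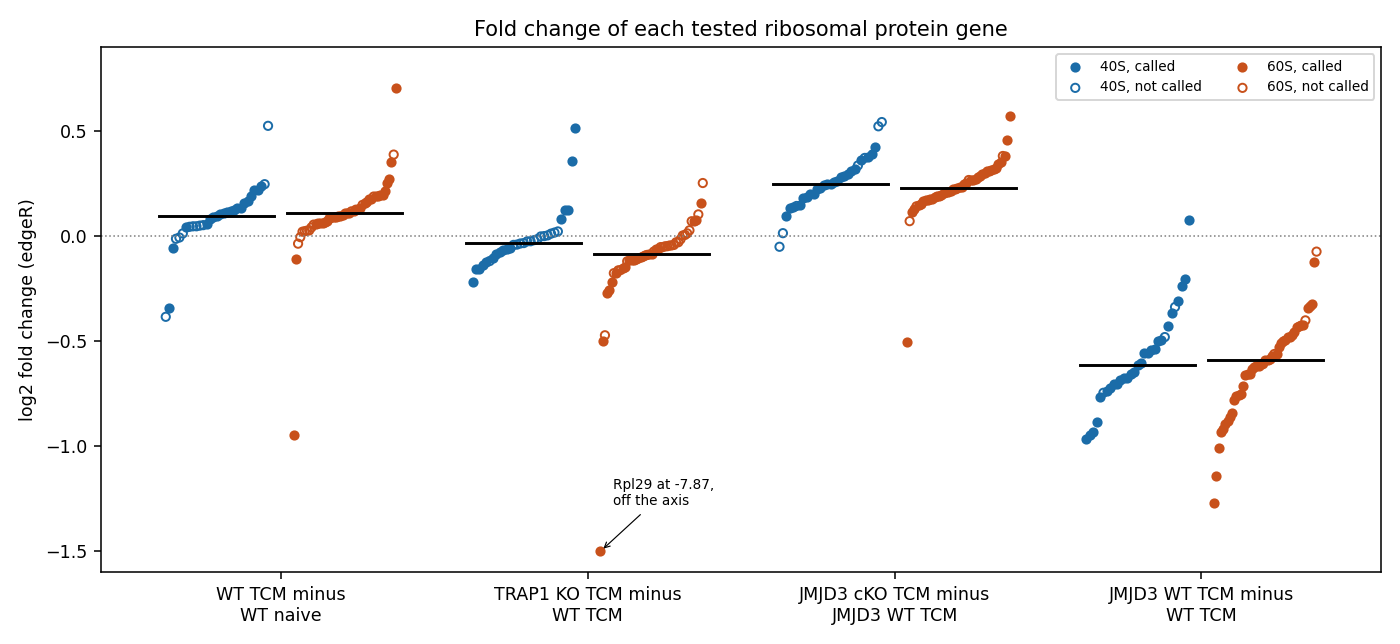
Log2 fold change (edgeR) of each tested member in 4 comparisons, ordered within each subunit (blue, 40S; orange, 60S); filled points were called at an adjusted p under 0.05, open points were not, and black lines are medians. Most members lie above 0 for TCM and for the JMJD3 cKO and below 0 between the wild types, and Rpl29 at -7.87 is drawn at the lower edge.

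A direct test asked whether the 2 contrasts differed from each other, as the difference of TRAP1 KO TCM from WT TCM minus that of the libraries labelled JMJD3 cKO from JMJD3 WT TCM, in 1 fit of all 16 libraries. It called 62 of 78 members lower and left 16 uncalled, against 37.9% of all genes called in either direction, 19.5% lower and 18.4% higher, and the median member differed by -0.30. After Rpl29 (-8.05), the largest differences were those of Rpl30 (-0.70, adjusted p = 0.0099), Rplp0 (-0.70, adjusted p = 2.3e-38), Rpl10a (-0.59, adjusted p = 1.2e-24), Rps28 (-0.58, adjusted p = 0.00022) and Rps12 (-0.57, adjusted p = 0.0053). Each knockout was measured against the wild type of its own set, and those wild types stood at different levels. Rps27l, Rps9 and Rps14 were among the members with no call, at -0.07, 0.02 and -0.03. Of the 65 members higher in JMJD3 cKO TCM, 29 were lower in TRAP1 KO TCM, which are 29 of the 31 members lower there. Another 29 of the 65 had no call in TRAP1 KO TCM. As 65 of 77 tested members were higher in JMJD3 cKO TCM and 31 of 78 lower in TRAP1 KO TCM, a large overlap follows from these counts alone.

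Members differed in their spread between replicates. The mean coefficient of variation within groups had a median of 2.68% over the 77 members with at least 1 CPM, and 8 members exceeded 10%. For 6 of those 8 it fell below 10% once the gene was counted with its near-identical copies. Rpl17, which held 27.6% of its family's counts, went from 25.5% to 1.5%, Rps10, which held 3.96%, from 17.1% to 3.21%, and Rps27, whose coding copy Rps27rt on chromosome 9 matched it over 341 bases without a mismatch, from 18.3% to 4.6%. Rps27a, whose product is made as a fusion with ubiquitin, stayed at 34.5% against 42.8% alone. Its libraries ranged from 119 to 308 CPM in WT naive and from 74.4 to 205 CPM in JMJD3 WT TCM, with no call in any comparison.

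**Figure D4:**
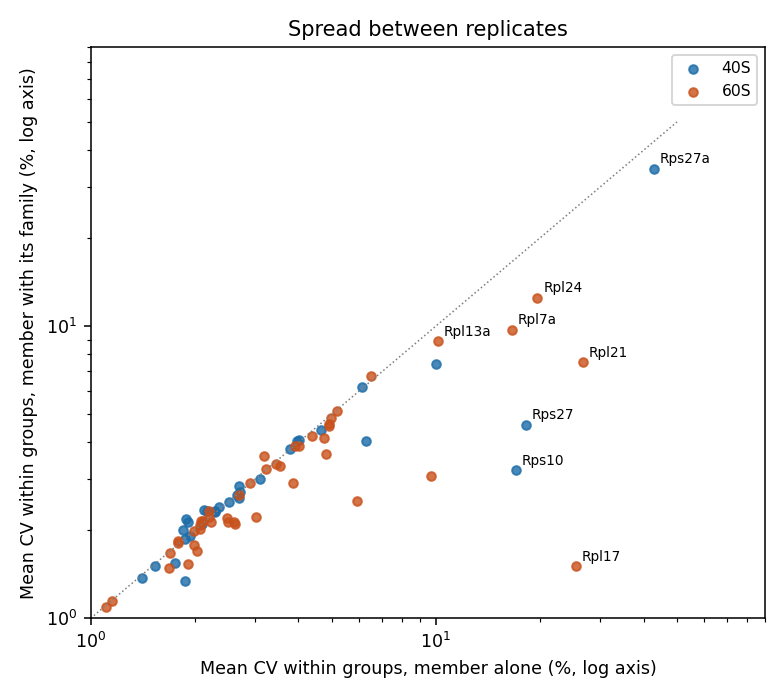
Mean coefficient of variation between replicates of a group for each of 77 members alone (horizontal) and counted with its near-identical genes (vertical), both in percent on log axes; the dotted line marks equal values. Rpl17, Rps10, Rps27 and Rpl21 lie far below the line, and Rps27a at 42.8% and 34.5% close to it.

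In all, 1594 annotated genes outside the members had their best match in a member at 85% identity or more, 908 of them with a count, and 79 members had at least 1 such gene. On average 9.13 ± 0.49% (SD, n = 16) of the counts of these families lay outside the members. Counting each family as 1 gene gave 51 higher and 4 lower with TCM, 8 higher and 35 lower in TRAP1 KO TCM, 69 higher in JMJD3 cKO TCM, and 1 higher and 75 lower in JMJD3 WT TCM against WT TCM. Rps10 in TRAP1 KO TCM was the single member whose family was called in the opposite direction. Of the 49 members that held at least 90% of their family's counts, 47 could be tested. In the 4 comparisons 31, 7, 44 and 1 of these were higher and 3, 21, 0 and 46 lower. The shares of all genes were 21.6%, 21.2%, 17.3% and 30% higher, and 20.6%, 21%, 17.8% and 31.3% lower. The 7 higher in TRAP1 KO TCM and the 1 higher in JMJD3 WT TCM lie below their shares. So do the 3 lower with TCM and the 0 lower in JMJD3 cKO TCM.

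Other genes of the translation machinery were followed as lists. Of 5 further ribosome proteins, 4 rose with TCM, 2 rose and 2 fell in TRAP1 KO TCM (median 0.0016), 3 rose in JMJD3 cKO TCM and 5 were lower in JMJD3 WT TCM than in WT TCM, among them Rack1, a 40S scaffold protein, which went from 529 to 596 CPM with TCM and stood at 342 CPM in JMJD3 WT TCM. Of 17 other TOP messenger RNAs, 10 rose and 2 fell with TCM, 4 rose and 9 fell in TRAP1 KO TCM, 15 rose in JMJD3 cKO TCM, and 16 were lower and 1 higher in JMJD3 WT TCM than in WT TCM. Eef2, the elongation factor that drives translocation, was named for its small adjusted p and need not be typical of this list. It was at 1727 CPM in WT naive, 2001 CPM in WT TCM and 1779 CPM with the TRAP1 deletion. In the JMJD3 line it stood at 1257 CPM in the wild type and 1494 CPM in the cKO. The medians of the list were 0.09, -0.08, 0.23 and -0.61, near those of the members. Over all genes 21.6% were called higher and 20.6% lower with TCM, and 21.2% and 21% in TRAP1 KO TCM. The shares were 17.3% and 17.8% in JMJD3 cKO TCM, and 30% and 31.3% between the wild types. The 4 TOP messenger RNAs that rose in TRAP1 KO TCM lie near their share, and the 2 that fell with TCM below it.

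The 36 ribosome biogenesis genes, which encode factors that build the subunits, did not follow the members in the TRAP1 set. With TCM 20 of them fell and 1 rose (median -0.17), and in TRAP1 KO TCM 13 rose and 2 fell (median 0.11). Of all genes 20.6% fell and 21.6% rose with TCM, and 21.2% rose and 21% fell in TRAP1 KO TCM. Nolc1, a nucleolar chaperone, rose there by 0.31 (adjusted p = 1e-09). In JMJD3 cKO TCM 29 rose (median 0.35), and 32 were lower and 1 higher in JMJD3 WT TCM than in WT TCM (median -0.70). The shares of all genes were 17.3% higher in JMJD3 cKO TCM, and 31.3% lower and 30% higher between the wild types. Ncl, the nucleolar protein nucleolin, was at 253 CPM in WT TCM, against 157 CPM in the JMJD3 wild type and 197 CPM in the cKO.

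Of 14 genes of RNA polymerase I and its factors, which transcribe ribosomal RNA, 4 fell with TCM, 3 rose in TRAP1 KO TCM, 4 rose and 1 fell in JMJD3 cKO TCM, and 8 were lower and 1 higher in JMJD3 WT TCM than in WT TCM. Over all genes 20.6% fell with TCM, 21.2% rose in TRAP1 KO TCM, and 17.3% rose and 17.8% fell in JMJD3 cKO TCM. Between the wild types 31.3% were lower in JMJD3 WT TCM and 30% higher. With only 14 genes, the 3 that rose in TRAP1 KO TCM lie near their share. The 4 that fell with TCM and the 4 that rose in JMJD3 cKO TCM lie somewhat above theirs. The 8 lower in JMJD3 WT TCM lie above their share. The 1 that fell in JMJD3 cKO TCM and the 1 higher in JMJD3 WT TCM lie below theirs. Of 15 genes around mTORC1, 3 rose and 6 fell with TCM, 4 rose and 2 fell in TRAP1 KO TCM, 1 fell in JMJD3 cKO TCM, and 4 were higher and 4 lower in JMJD3 WT TCM. Except for the 6 that fell with TCM, these counts of higher and lower genes lie near or below the shares over all genes (21.6% higher with TCM, 21.2% and 21% higher and lower in TRAP1 KO TCM, 30% and 31.3% between the wild types). The 4 lower ones in JMJD3 WT TCM included Myc, a known activator of ribosomal protein and biogenesis genes, at 23.6 CPM in WT TCM and 5.84 CPM in JMJD3 WT TCM (-2.01, adjusted p = 1.5e-32).

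A further list held 10 genes of p53 and its targets, the pathway that Rpl5 and Rpl11 can activate through Mdm2. Of these, 7 fell and 1 rose with TCM, against 20.6% and 21.6% of all genes. In TRAP1 KO TCM 9 rose, against 21.2% of all genes. Cdkn1a, the cell cycle inhibitor p21, went from 503 to 312 CPM with TCM and to 586 CPM in TRAP1 KO TCM, a rise of 0.92 (adjusted p = 4.6e-62). In JMJD3 cKO TCM 3 of the 9 tested rose and 4 fell, against 17.3% and 17.8% of all genes. Between the wild types 4 were higher and 4 lower in JMJD3 WT TCM, where 30% and 31.3% of all genes were called. Rps27l, the member known as a p53 target, fell with TCM and rose in TRAP1 KO TCM, as given above, and rose in JMJD3 cKO TCM as well.

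**Figure D5:**
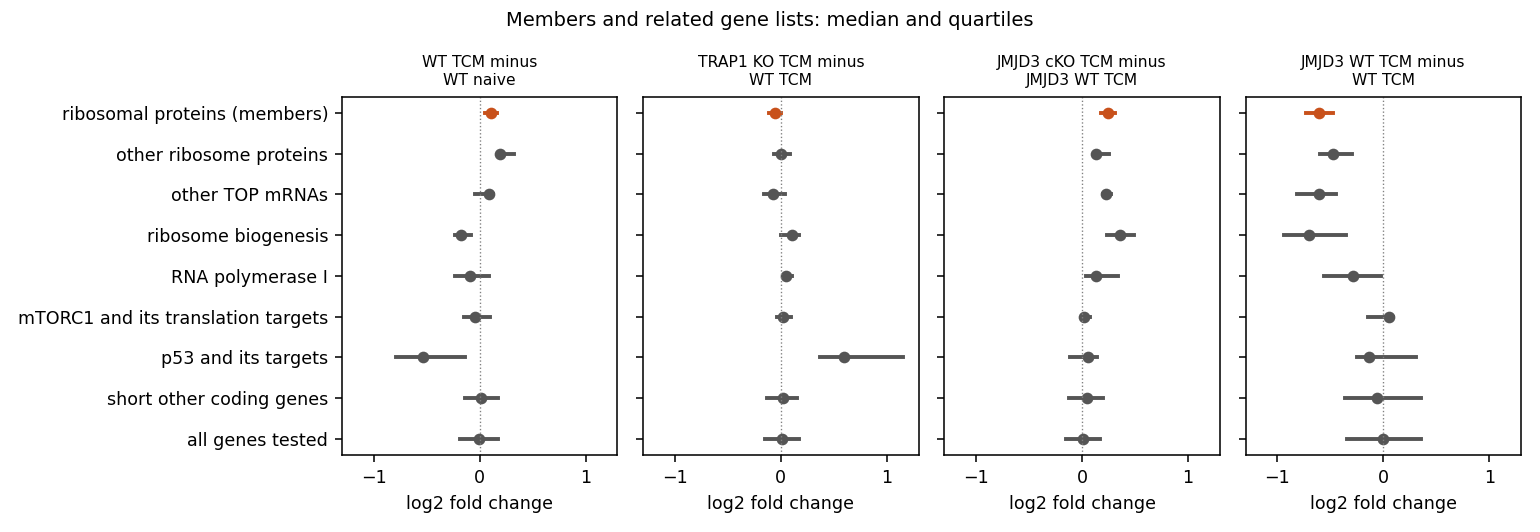
Median (points) and quartiles (bars) of the log2 fold changes of the members (orange), of the related lists and of all genes tested, in 4 comparisons. The members' median is 0.10, -0.05, 0.25 and -0.61 from left to right, while the median of all genes tested stays within 0.01 of 0. That centre rests on TMM scaling. With library totals alone the median of all genes is 0.09 in JMJD3 cKO TCM and -0.17 between the wild types.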

How the data were processed

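RNA sequencing of 16 libraries was analysed from the gene count files that the authors deposited, which hold whole-number counts per Ensembl gene. Per the labels' protocols, ribosomal RNA was depleted (Ribo-Zero) and libraries were made with TruSeq Stranded. Per the submitters' processing notes, the build was mm10 and the tools included RSEM, Bowtie2, StringTie and HISAT, without roles. The counting tool, its use of strand and its handling of multiply matching reads are not stated there or in the labels.

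Counts were tested with edgeR 4.0.16 (TMM scaling, filterByExpr with a minimum count of 10, robust quasi-likelihood fit, Benjamini-Hochberg adjustment over all genes tested, calls at an adjusted p under 0.05). CPM use TMM-scaled totals. The TCM and TRAP1 comparisons shared 1 fit of 10 libraries, the JMJD3 effect had its own of 6, and the interaction used all 16. DESeq2 1.42.0 was an alternative. Scripts were tested on simulated counts. Transcripts were aligned with BLASTN 2.17.0; a family is a member with the genes matching it best at 85% identity or more over at least 50% of their transcript. Named members were the 6 with the largest called differences in each direction of a comparison, the 5 highest and 5 lowest per kb, and a fixed set by role; others are said to be chosen after their values were seen. Genes named from the related lists were taken from the called ones with the smallest adjusted p. They need not be typical of their list. The members and lists were chosen with earlier results of these data known. Same-numbered replicates did not deviate together, so numbers were not used as pairs. Values of some single members are not reported here, although the counts of members include them.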

Additional observations from a re-analysis of the deposited data

Results flagged for a closer look

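TRAP1 KO TCM, the only group with 4 libraries, was searched for single libraries far from the other 3 by Dixon's criterion. Chance meets this criterion in about 1 of 20 groups, and all 81 members were searched, so several flags would arise by chance. The following were among the members flagged. Rpl3 was at 415 CPM in replicate 1 (402 to 404 CPM in the others) and Rpl34 at 145 CPM in replicate 2 (155 to 156 CPM). Rpl6 was at 438 CPM in replicate 1 (448 to 449 CPM) and Rps13 at 178 CPM in replicate 3 (165 to 167 CPM). Rps26 was at 285 CPM in replicate 4 (268 to 270 CPM).

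The difference of TRAP1 KO TCM from WT TCM and that of the libraries labelled JMJD3 cKO from JMJD3 WT TCM differed by the test of the difference itself (edgeR, adjusted p under 0.05) in 62 members, all lower for TRAP1 KO. Kdm6b was not lower in the libraries labelled cKO (25.6 against 25.1 CPM). The log2 differences were -8.05 for Rpl29, -0.70 for Rpl30, -0.70 for Rplp0, -0.59 for Rpl10a, -0.58 for Rps28 and -0.57 for Rps12.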

How the results depend on the processing

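Leaving out each library in turn gave 42 to 48 members higher and 3 to 4 lower with TCM (median 0.09 to 0.11), 6 to 9 higher and 28 to 33 lower in TRAP1 KO TCM (median -0.07 to -0.05), 61 to 64 higher and 0 to 1 lower in JMJD3 cKO TCM (median 0.21 to 0.27), 0 to 1 higher and 70 to 71 lower between the wild types (median -0.62 to -0.57), and 57 to 62 lower in the interaction (median -0.32 to -0.27). DESeq2 called 2 members lower with TCM. In JMJD3 cKO TCM 0 were lower with families summed, with all 16 libraries in 1 fit, or by DESeq2. Library totals without TMM moved the median of all genes to -0.17 between the wild types, where 31.7% of calls were then higher in place of 48.9%, and to 0.09 in JMJD3 cKO TCM (71.5% in place of 49.2%); the members' medians became -0.77, with 0 members higher, 0.33, and -0.37 in the interaction. With the replicate block, 50 members were higher and 4 lower with TCM, 9 and 31 in TRAP1 KO TCM, 67 and 1 in JMJD3 cKO TCM, and 1 and 70 between the wild types. Correlations of same-numbered libraries lay between -0.03 and 0.03.

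The summed share, from WT naive to JMJD3 cKO TCM in the order of the report, was 2.20, 2.35, 2.24, 1.39 and 1.72% of nuclear protein-coding counts and 2.34, 2.49, 2.39, 1.49 and 1.83% with families, and the median member stood at 231, 259.6, 250.3, 172 and 196 CPM. Leaving out a library kept it within 2.13 to 2.13, 2.27 to 2.28, 2.15 to 2.18, 1.33 to 1.36 and 1.65 to 1.69%.

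Signs turned for 7 of the named results, and the cause was not tested. Without 1 library, Rps27a ranged from -0.25 to 0.38 with TCM and from -0.31 to 0.22 in TRAP1 KO TCM, where it was also -0.0048 with only these 2 groups and -0.016 by DESeq2. In TRAP1 KO TCM Rpl36al was -0.14 with its family and -0.076 to 0.42 without 1 library, Rpl39 was -0.0053 to 0.042, and Rps10 was -0.10 with its family. Rps24 between the wild types was -0.090 with library totals. In the interaction Rpl36al was -0.062 with library totals, -0.46 with its family and -0.39 to 0.51 without 1 library.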

Other observations

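Of the 25 tested genes within 1000 kb of Rpl29, 18 (72%) were called in TRAP1 KO TCM, 6 higher and 12 lower, against 42.2% of all genes. Col6a6 differed most, at 4.08 on the log2 scale.

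Of the 47 members higher with TCM, 25 were lower and 4 higher in TRAP1 KO TCM. Among all 78 members tested there, 31 were lower and 8 higher. Both comparisons use the WT TCM libraries, so these counts are not independent.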
